A study of Mus musculus with 9 samples.

Results

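The genes described here encode the proteins of the cytosolic ribosome and of the mitochondrial ribosome. They were taken from the 33212 rows of a deposited gene count table by symbol (Rpl, Rps, Rplp0 to Rplp2 and Rpsa for the cytosolic particle, Mrpl and Mrps for the mitochondrial one), without symbols marked as pseudogenes and without the S6 kinases. The rule found 163 rows, 87 cytosolic and 76 mitochondrial. A filter on low counts kept 14754 rows of the table, among them 83 of the cytosolic and all 76 mitochondrial rows. RNA was sequenced after poly-A capture from mouse αTC1 cells, a single cell line derived from pancreatic alpha cells and grown in low-glucose medium. Control cells received DMSO for 7 days (n = 5 libraries), and treated cells received 4 µM EPZ011989, an inhibitor of the histone H3 lysine 27 methyltransferase EZH2, for the same 7 days (n = 4). The labels call the libraries biological replicates but do not say whether they were separate cultures, and the p-values therefore speak only of the variation among these 9 libraries, which may be technical. The series has this comparison alone, which asks what EPZ011989 does to gene expression in αTC1 cells.

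Ribosomal proteins are made in near-equal amounts, because each ribosome holds a single copy of almost every one of them. Their mRNAs are short and abundant, and in the cytosolic set nearly all begin with a tract of pyrimidines (the 5′ terminal oligopyrimidine or TOP motif) through which the kinase mTORC1 and the RNA-binding protein Larp1 set their translation. Mitochondrial ribosomal proteins are encoded in the nucleus by mRNAs that generally lack such a tract, are imported, and assemble with mitochondrial rRNA into the particle that makes the core subunits of the respiratory chain.

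The pyrimidine tract is shown for a few cytosolic members, because the paralogs and the genes that moved against their class are read beside it later. Each window holds 25 bases before and 15 after the RefSeq start (build GRCm38.p6), written 5′ to 3′ along the gene, and capitals mark the longest run of C and T that touches the bases within 10 of the start.
Rps6 (chr4:86857353-86857392, minus strand): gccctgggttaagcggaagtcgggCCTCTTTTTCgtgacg
Rpl31 (chr1:39367826-39367865, plus strand): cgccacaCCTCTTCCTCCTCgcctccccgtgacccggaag
Rps25 (chr9:44407689-44407728, plus strand): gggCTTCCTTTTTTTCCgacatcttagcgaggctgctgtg
Rpl4 (chr9:64173362-64173401, plus strand): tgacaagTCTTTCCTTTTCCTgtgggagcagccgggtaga
Rpl22l1 (chr3:28805483-28805522, plus strand): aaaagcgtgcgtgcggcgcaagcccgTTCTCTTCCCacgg
Rplp0 (chr5:115559442-115559481, plus strand): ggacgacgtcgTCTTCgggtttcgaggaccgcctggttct
Rpl11 (chr4:136053379-136053418, minus strand): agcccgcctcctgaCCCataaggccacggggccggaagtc
Rps4x (chrX:102189377-102189416, minus strand): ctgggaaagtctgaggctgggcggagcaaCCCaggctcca
Rps27l (chr9:66946061-66946100, plus strand): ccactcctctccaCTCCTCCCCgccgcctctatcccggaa
Rps27l second start (chr9:66946388-66946427, plus strand): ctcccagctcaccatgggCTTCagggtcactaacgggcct
Rpl36al (chr12:69184053-69184092, minus strand): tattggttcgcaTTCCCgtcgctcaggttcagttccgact
Rpl7l1 (chr17:46782642-46782681, minus strand): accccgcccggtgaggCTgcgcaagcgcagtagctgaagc
A RefSeq start can lie some bases away from the start used in these cells, so a window without a run does not show that the mRNA lacks one. In Rps6, Rpl31, Rps25, Rpl4 and Rpl22l1 the run had 10 to 14 bases, while in the core genes Rplp0, Rpl11 and Rps4x it had 5, 3 and 3. In Rps27l it had 9 at 1 RefSeq start and 4 at another, and in Rpl36al and Rpl7l1 it had 5 and 2. RefSeq windows were matched for 64 of 87 cytosolic and 67 of 76 mitochondrial members. A run of at least 8 pyrimidines was found in 39.5% of 76 cytosolic windows and in 12.3% of 73 mitochondrial windows, against 13.7% of 32851 windows of all genes.

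Other motifs were found in both classes. The motif CCGGAAG, searched on both strands in the 250 bases before and 50 after the start, stood in 35.5% of cytosolic and 32.9% of mitochondrial windows, against 8.86% of all windows. AAGATGGCG stood in 7.89% and 11.0% (all windows 1.4%), and CGCATGCG, which is its own reverse complement, in 3.95% and 9.59% (all windows 1.87%). GGGCGG stood in 60.5% of cytosolic and 52.1% of mitochondrial windows, against 35.7% of all. Such matches describe the sequence and are not binding sites. Whole windows of 300 bases (GRCm38.p6, 5′ to 3′ along the gene) are printed for 3 mitochondrial members whose mRNA fell, with these motifs in capitals: CCGCCC, the reverse complement of GGGCGG, in Mrpl1, CGCATGCG in Mrpl9, and CTTCCGG, the reverse complement of CCGGAAG, with AAGATGGCG in Mrps27.
Mrpl1 (chr5:96209865-96210164, plus strand): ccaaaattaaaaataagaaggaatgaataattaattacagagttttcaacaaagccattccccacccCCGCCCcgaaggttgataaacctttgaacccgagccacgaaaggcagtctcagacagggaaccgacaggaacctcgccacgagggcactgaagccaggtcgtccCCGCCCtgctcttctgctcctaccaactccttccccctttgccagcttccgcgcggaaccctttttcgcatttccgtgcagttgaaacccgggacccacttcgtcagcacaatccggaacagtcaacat
Mrpl9 (chr3:94443086-94443385, plus strand): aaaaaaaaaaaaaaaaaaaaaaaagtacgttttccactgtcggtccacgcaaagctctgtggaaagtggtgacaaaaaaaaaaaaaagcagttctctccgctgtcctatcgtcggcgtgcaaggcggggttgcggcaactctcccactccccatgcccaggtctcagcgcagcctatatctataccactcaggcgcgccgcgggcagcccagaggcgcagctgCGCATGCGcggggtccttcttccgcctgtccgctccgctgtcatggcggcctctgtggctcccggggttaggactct
Mrps27 (chr13:99344536-99344835, plus strand): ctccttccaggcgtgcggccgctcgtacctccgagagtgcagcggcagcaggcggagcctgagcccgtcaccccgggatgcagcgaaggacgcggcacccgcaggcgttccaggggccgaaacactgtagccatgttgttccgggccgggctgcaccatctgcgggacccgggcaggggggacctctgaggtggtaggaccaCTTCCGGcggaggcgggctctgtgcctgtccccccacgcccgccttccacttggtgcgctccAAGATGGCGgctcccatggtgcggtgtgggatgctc

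Total counts lay between 60274140 and 74651782 per library. The cytosolic rows together held 3.20% ± 0.31 (SD, n = 5) of all counts in DMSO and 3.32% ± 0.62 (n = 4) with EPZ011989, group means that differed by less than the spread between libraries. The mitochondrial rows held 0.524% ± 0.031 and 0.481% ± 0.070. For the cytosolic class the lowest and the highest of the 9 libraries were both treated ones, replicate 2 at 2.59% and replicate 4 at 4.04%, with the DMSO libraries between 2.79% and 3.56%. The members moved together from library to library: over the 9 libraries, the log2 CPM (counts scaled to a common library size) of a cytosolic member correlated with the class mean at a median r of 0.96, with 70 of 83 over 0.9, and that of a mitochondrial member at 0.90. Library depth and transcript length are shared by these points, so the correlations are descriptions.

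**Figure D1:**
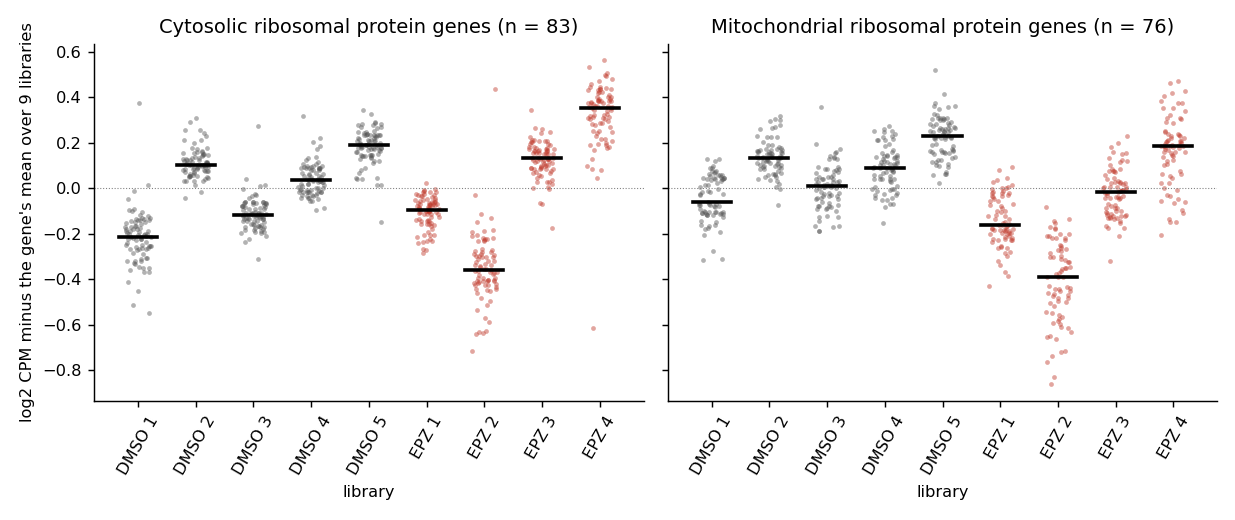
Each point is 1 tested gene in 1 library, as log2 CPM minus the gene's mean over the 9 libraries (grey DMSO, red EPZ011989, bars medians). Cytosolic medians run from -0.36 in EPZ011989 replicate 2 to 0.35 in replicate 4, and DMSO medians lie between them, while mitochondrial medians run from -0.39 to 0.23, the highest being DMSO replicate 5.

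This shared movement ran along transcript length. A smooth trend of expression with length, fitted in each library over all tested genes and read at 500 bases, was -0.23 (log2) in EPZ011989 replicate 2 and 0.29 in replicate 4. The same trend was -0.18 in DMSO replicate 1 and 0.15 in DMSO replicate 5. Genes under 1000 bases that the symbol rule did not take and that had at least 100 CPM in DMSO (206 genes) had medians of -0.31 and 0.29 in these treated libraries. That set can hold ribosomal proteins with other symbols, such as Fau. Cytosolic members have a median annotated length of 737 bases, mitochondrial members 1208 and all tested genes 2473. The part of length in any single fold change was not tested, and a fit that removes the trend is given beside the calls it ends or adds.

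**Figure D2:**
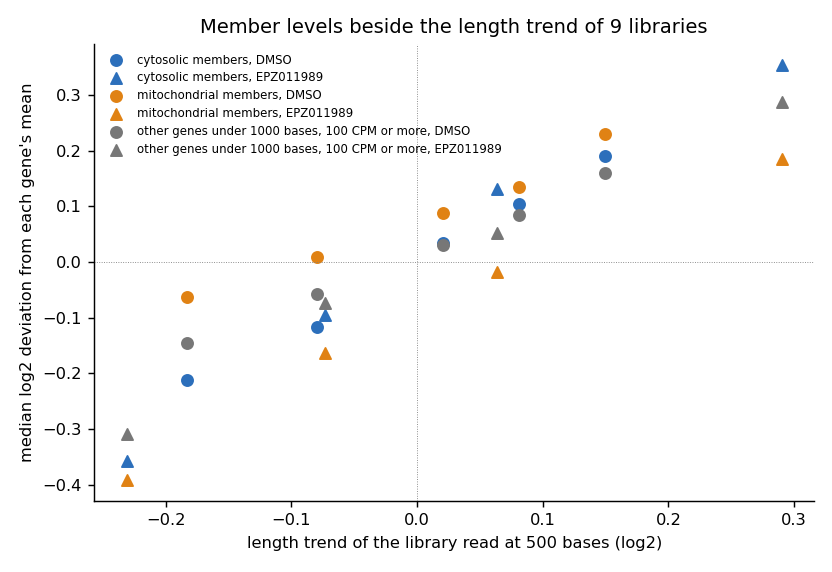
Each point is 1 library (circles DMSO, triangles EPZ011989), with the length trend at 500 bases (log2) on the x axis and the median log2 deviation of a gene class from each gene's mean on the y axis. Cytosolic members (blue) and other short, abundant genes (grey) rise together from -0.23 to 0.29 on the x axis, and mitochondrial members (orange) of treated libraries lie below those of DMSO libraries at a like trend.

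In the cytosolic ribosome no gene passed the test in either direction. In edgeR's quasi-likelihood test, adjusted by Benjamini-Hochberg over all 14754 genes and called under 0.05, 0 of 83 members were higher and 0 lower, where 16.2% of all tested genes were called higher and 7.96% lower. Cytosolic members are abundant, and of the 2476 genes with a DMSO mean of at least 100 CPM 3.92% were called higher and 16.4% lower, with a median log2 fold change of -0.09. Of the 206 short, abundant non-members 8 were higher and 13 lower, with a median of -0.03. At an unadjusted p under 0.05 the same fit had 0 higher and 1 lower, and both DESeq2 and limma-voom called 0 members in each direction. Groups separated without overlap for 0 members, against 16.1% of all genes higher and 8.77% lower. The median log2 fold change was 0.03, as it was over all tested genes (0.03), and single members ran from -0.29 to 0.24. The median standard error was 0.14 on the log2 scale, so small changes were not detectable at this spread between libraries. The 34 tested members of the small 40S subunit had a median of 0.02 and the 49 of the large 60S subunit 0.04.

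**Figure D3:**
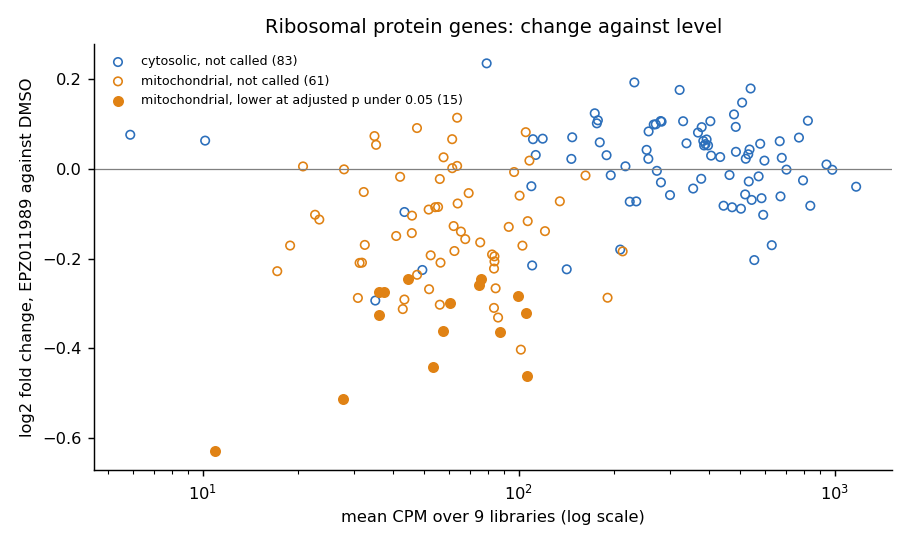
Each point is 1 tested ribosomal protein gene, with its mean CPM over 9 libraries on a log axis and its log2 fold change, EPZ011989 against DMSO. All 83 cytosolic genes (blue, open) are uncalled between -0.29 and 0.24, and the 15 mitochondrial genes called lower (filled orange) lie between -0.63 and -0.24.

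Cytosolic members stood at 376 CPM in DMSO by their median. Rpl41, which encodes the shortest ribosomal protein, had the highest level per annotated length, at 1817 CPM per kb in DMSO and 1959 CPM per kb with EPZ011989 (794 ± 126 and 856 ± 222 CPM, adjusted p = 0.722, edgeR). Rplp0, the base of the stalk that recruits elongation factors, stood in DMSO replicates 1 to 5 at 880, 1009, 921, 996 and 1103 CPM. With EPZ011989 it stood at 938, 711, 1064 and 1209 CPM, so the lowest and the highest library were both treated, as in the class (log2 fold change 0.00 ± 0.14 SE, adjusted p = 0.996, edgeR). The other stalk genes Rplp1 and Rplp2 had log2 fold changes of 0.06 and -0.02. Rps6, the substrate of the S6 kinases, was at 595 ± 54 and 603 ± 123 CPM. Rpl5 and Rpl11, which with 5S rRNA can bind Mdm2, were at 485 ± 42 and 458 ± 44 CPM and at 391 ± 48 and 405 ± 80 CPM. Rpsa of the 40S head, Rpl10a and Rpl38, the last known for its role in translating Hox mRNAs, had log2 fold changes of -0.06, -0.02 and 0.07 with overlapping groups.

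Rps27l, Rpl36al and Rpl7l1, paralogs of core protein genes, were among the members with the lowest fold changes, and Rpl22l1, also a paralog, was not. Rps27l, a p53 target, had the smallest adjusted p of the class (0.120, edgeR). It stood at 33.6, 41.5, 32.2, 43.2 and 40.8 CPM in DMSO and at 29.7, 25.5, 33.1 and 36.7 CPM with EPZ011989. The treated libraries lay mostly below, but the ranges overlapped (log2 fold change -0.29 ± 0.13 SE). Its partner Rps27 was at 112 ± 18 and 115 ± 26 CPM. Rpl36al was at 151 ± 19 and 130 ± 23 CPM (-0.22) while its partner Rpl36a was at 144 ± 20 and 152 ± 27 CPM (0.07). Rpl7l1 was at 117 ± 10 and 101 ± 14 CPM (-0.21) beside Rpl7 at 799 ± 86 and 785 ± 71 CPM (-0.03). Rpl22l1, which shares a place on the 60S subunit with Rpl22, was at 9.98 ± 1.10 and 10.4 ± 2.2 CPM (0.06), and Rpl22 itself at 229 ± 24 and 218 ± 41 CPM (-0.07). Rpl39, a small protein of the exit tunnel, had the highest fold change of the class, 0.24 ± 0.14 (adjusted p = 0.260, edgeR). The differences between paralog and partner were not tested.

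Removing the trend with length brought some of these past the threshold. In that fit 6 of 83 cytosolic members (7.23%) were called lower and 0 higher, against 10.4% and 18.9% of all genes. The 6 were Rps27l (-0.31, adjusted p = 0.00584, edgeR), Rpl36al (-0.25), Rpl7l1 (-0.21), Rps25 (-0.21), Rpl4 (-0.20) and Rps27a (-0.19). Rps25, which is used by several viral and cellular internal ribosome entry sites, and Rpl4 carried long pyrimidine runs in the windows above, and Rpl36al and Rpl7l1 short ones, as did core genes that were not called. The share that a gene holds within the summed class takes out movement that all members share in equal proportion, but not movement that differs between members. Rplp2, for example, held 1.46% in EPZ011989 replicate 2 and 1.70% to 1.85% in the other libraries. For Rps25 this share was 0.689%, 0.688%, 0.676%, 0.673% and 0.678% in DMSO and 0.563%, 0.621%, 0.601% and 0.601% with EPZ011989, so every treated library lay below every DMSO library. Rpl31, a protein at the rim of the exit tunnel, went the other way, from between 1.52% and 1.61% in DMSO to between 1.70% and 1.86% with EPZ011989. Of the 83 members, 7 held a lower share without overlap, among them Rps25, Rpl36al, Rpl4, Rps27l and Rps27a, and 6 a higher share, among them Rps20 and Rpl31. By CPM, a different measure, 8.77% of all tested genes separated lower and 16.1% higher. The shares within the class sum to a whole and were not tested.

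A few rows need care. The row named Rpl24 carries the identifier ENSMUSG00000022601, which GENCODE M21 gives to the transcription factor gene Zbtb11, and it ran against its class (r = -0.83 with the class mean). The GENCODE gene Rpl24 (ENSMUSG00000098274) is a row written in capitals, outside the name rule, at 309 ± 33 and 324 ± 70 CPM (adjusted p = 0.786, edgeR). Rps3a2 and Rps3a3 are annotated as processed pseudogenes, and Rps3a3 was the least abundant tested row of the class at 5.76 ± 0.52 and 6.07 ± 1.16 CPM. The tissue-restricted paralogs Rpl39l, Rpl3l and Rpl10l and the row Rps4y2 were not tested: in all 5 DMSO libraries they had 0 counts, and with EPZ011989 at most 20 counts in a library. GENCODE M21 names 298 pseudogenes after 60 of the 87 cytosolic members, which can share reads with them, and 58 snoRNA genes lie inside 30. Only 3 mitochondrial members have named pseudogenes, and none hosts a snoRNA.

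Mitochondrial ribosomal protein genes differed between the groups in 1 direction. The edgeR quasi-likelihood test called 15 of 76 members lower (19.7%) and 0 higher, beside 7.96% of all tested genes called lower and 10.9% of genes with a DMSO mean of 10 to 150 CPM, the range in which most members lie. The median log2 fold change was -0.17, against 0.03 over all genes and -0.03 in that range, and 65 of 76 members had a value below 0. Groups separated without overlap, lower with EPZ011989, for 13 members (17.1%), against 8.77% of all genes. Leaving out EPZ011989 replicate 1 took the count to 9, where 903 of all 14946 tested genes were lower. Leaving out replicate 4 took it to 26, where 1305 of 15001 were lower, against 1174 of 14754 in the main fit. Upper-quartile scaling gave 8, where 776 of 14754 genes were lower. The fit with the length trend removed gave 29 of 76 (38.2%, against 10.4% of all genes), which shared 12 of the 15.

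The fall touched both subunits. Subunits were taken from the symbol alone (Mrpl as the 39S large, Mrps as the 28S small subunit), which need not match a protein's place in the particle. By symbol 10 of 47 large subunit members fell and 5 of 29 small subunit members, with the same median log2 fold change of -0.17. Proteins with a bacterial counterpart fell for 11 of 48, and proteins found only in mitochondrial ribosomes for 4 of 27. Mrps36, now known as a subunit of the oxoglutarate dehydrogenase complex, was placed in neither of these last sets, though its symbol counts it among the 29. It did not pass (47.9 ± 4.2 and 43.4 ± 8.7 CPM, adjusted p = 0.496, edgeR).

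**Figure D4:**
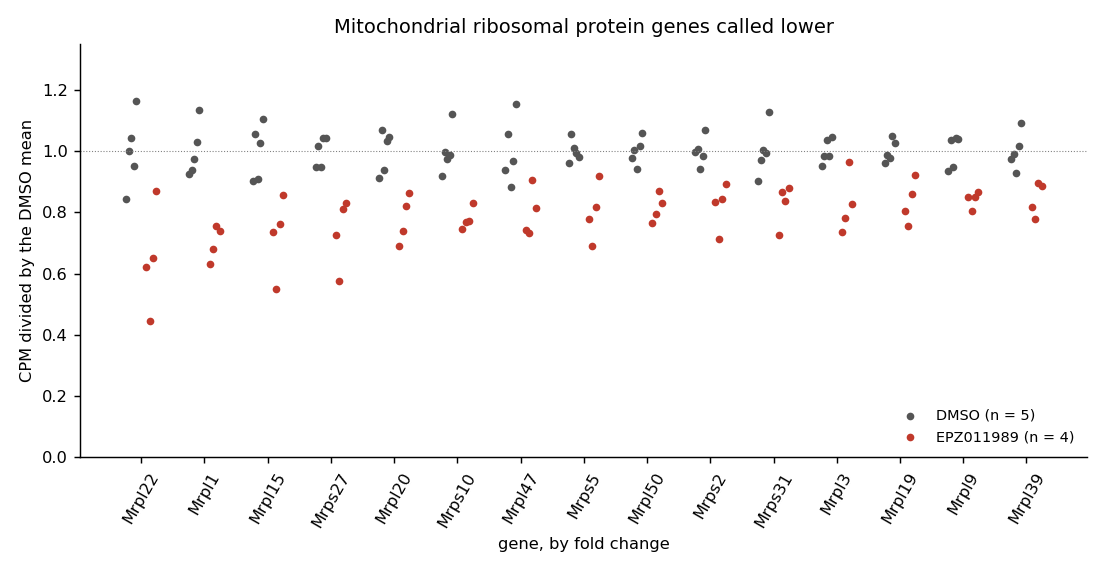
The 15 mitochondrial ribosomal protein genes called lower, ordered by fold change, with each library's CPM divided by the DMSO mean (grey DMSO, n = 5, red EPZ011989, n = 4). Treated libraries lie below all DMSO libraries except for Mrpl22, Mrpl47 and Mrpl3. The ratio of group means is 0.65 for Mrpl22, the lowest, and 0.84 for Mrpl39.

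Among large subunit members, Mrpl1 of the L1 stalk (chromosome 5, 96209493 to 96266727, GRCm38), whose promoter is printed above, had the smallest adjusted p. It stood at 29.6, 29.9, 31.1, 32.8 and 36.2 CPM in DMSO and at 20.2, 21.7, 24.1 and 23.6 CPM with EPZ011989. Every treated library lay below every DMSO library, with replicate 1 the lowest of the 9 (log2 fold change -0.51 ± 0.09 SE, adjusted p = 0.00153, edgeR). Mrpl20 (chromosome 4, 155802878 to 155809975), which belongs to the core of the large subunit, stood at 88.4, 104, 91.0, 100.2 and 101 CPM in DMSO. With EPZ011989 it stood at 66.9, 71.6, 79.5 and 83.6 CPM, again without overlap (-0.36 ± 0.08 SE, adjusted p = 0.00900, edgeR). Mrpl15 (chromosome 1, 4773206 to 4785739) was at 109, 128, 110, 124 and 134 CPM in DMSO and at 89.2, 66.5, 92.5 and 104 CPM with EPZ011989. Replicate 2 stood well below the other treated libraries, and no treated library reached a DMSO value (-0.46 ± 0.12 SE, adjusted p = 0.0170, edgeR).

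The lowest fold change of the class belonged to Mrpl22 (chromosome 11, 58171661 to 58179565), a protein at the exit tunnel and the least abundant of the 76 by DMSO mean. It stood at 10.9, 12.9, 13.5, 12.3 and 15.1 CPM in DMSO and at 8.03, 5.77, 8.41 and 11.3 CPM with EPZ011989 (-0.63 ± 0.17 SE, adjusted p = 0.0217, edgeR). Here treated replicate 4 lay above DMSO replicate 1, so the groups overlapped, and the call was lost without EPZ011989 replicate 1 or replicate 3. Mrpl50 (66.2 ± 2.9 and 53.8 ± 3.0 CPM), Mrpl9 (81.7 ± 4.4 and 69.0 ± 2.2 CPM), Mrpl19 (80.5 ± 3.0 and 67.3 ± 5.8 CPM) and Mrpl39 (47.8 ± 2.9 and 40.3 ± 2.7 CPM) fell without overlap. Mrpl47 and Mrpl3 fell with overlapping groups. Of the 9 fits that each left out 1 library, Mrpl3 was called in 3 (without DMSO replicate 1, EPZ011989 replicate 2 or replicate 3). Mrpl47 and Mrpl39 lost their calls without DMSO replicates 2, 4 or 5 or EPZ011989 replicate 1, and Mrpl19 without DMSO replicate 4 or EPZ011989 replicate 1. With the length trend removed, Mrpl19 (adjusted p = 0.158, edgeR) and Mrpl3 (0.0698) were not called. Exons of 5 of the 15 genes (Mrpl3, Mrpl9, Mrpl19, Mrpl47 and Mrps27) overlap those of another annotated gene, whose reads could not be told apart without strand.

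Among small subunit members, Mrps10 (chromosome 17, 47368887 to 47381417) stood at 58.7, 63.5, 62.3, 63.1 and 71.5 CPM in DMSO and at 47.6, 49.0, 49.2 and 52.9 CPM with EPZ011989. The treated libraries were close to each other and all below the DMSO range (-0.36 ± 0.07 SE, adjusted p = 0.00393, edgeR). Mrps27 (chromosome 13, 99344786 to 99415562), a pentatricopeptide repeat protein found only in the mitochondrial particle, was at 57.3, 61.4, 57.4, 62.9 and 63.1 CPM in DMSO. With EPZ011989 it was at 43.9, 34.8, 49.0 and 50.3 CPM, lowest in replicate 2 and without overlap (-0.44 ± 0.10 SE, adjusted p = 0.0100, edgeR). Mrps5, Mrps2 and Mrps31 fell without overlap by 0.32, 0.28 and 0.27 on the log2 scale. Mrps31 was called in 3 of the fits that left out 1 library (without DMSO replicate 1, EPZ011989 replicate 2 or replicate 4), and Mrps5 was not called with the length trend removed (adjusted p = 0.0791, edgeR). Of the 15 genes, 9 kept their call in each of the fits that left out 1 library: Mrpl1, Mrpl9, Mrpl15, Mrpl20, Mrpl50, Mrps2, Mrps5, Mrps10 and Mrps27.

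Other mitochondrial members did not pass. Mrpl12, the L7/L12 stalk protein, was at 208 ± 22 and 170 ± 33 CPM (adjusted p = 0.137, edgeR). Mrps12, the counterpart of the bacterial decoding-site protein S12, was at 56.6 ± 6.8 and 55.8 ± 13.6 CPM, and Mrps35 at 55.8 ± 1.2 and 52.6 ± 7.7 CPM. Mrpl42, with the highest level of the class per annotated length (340 CPM per kb in DMSO and 300 CPM per kb with EPZ011989), was at 225 ± 21 and 198 ± 27 CPM (adjusted p = 0.234). Mrps16, the lowest per length (7.73 and 6.87 CPM per kb), was at 19.9 ± 2.3 and 17.7 ± 5.5 CPM (adjusted p = 0.571). The highest fold change was 0.11, for Mrpl23 (61.5 to 66.6 CPM, adjusted p = 0.666). Within the summed class of 76, 7 members held a higher share without overlap, among them Mrpl23, Mrpl13 and Mrpl27, and 7 a lower one, among them Mrpl15, Mrps27 and Mrpl22. By CPM, a different measure, 16.1% of all tested genes separated higher and 8.77% lower. In the promoter windows of the mitochondrial members, GGGCGG stood in 2 of 13 windows of called members (15.4%) and in 36 of 60 of the others, a contrast picked after the counts were seen and not tested.

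Ribosomal proteins whose symbols lie outside the name rule were read beside them. Of the cytosolic ones, Fau was at 330 ± 41 and 335 ± 94 CPM and did not pass, nor did Gnb2l1, the older symbol of Rack1 (log2 fold change -0.09). Of 7 genes listed for the mitochondrial ribosome 1 fell, Ptcd3, a small subunit protein. The list holds Oxa1l, which is not itself a ribosomal protein, and leaves out Mrp63, which did not pass (log2 fold change -0.27, adjusted p = 0.143, edgeR). Ptcd3 went from 160 ± 5 to 117 ± 11 CPM (-0.45 ± 0.07 SE, adjusted p = 0.00100, edgeR), and all 7 listed genes had a log2 fold change below 0. Dap3, a small subunit GTP-binding protein, was at 108 ± 9 and 95.8 ± 14.0 CPM (adjusted p = 0.279).

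Genes for the factors that build the ribosome were read next. Their counts stand beside 16.2% of all tested genes called higher and 7.96% lower, and beside 10.9% lower at 10 to 150 CPM and 16.4% lower at 100 CPM or more. Of 49 tested genes for ribosome assembly in the nucleolus and cytosol, 30 fell (61.2%) and 0 rose, the median log2 fold change was -0.35, and all 49 values were below 0. Rrp1b, a nucleolar assembly factor, stood at 90.1, 82.8, 85.8, 91.9 and 81.5 CPM in DMSO and at 63.8, 56.1, 59.1 and 59.2 CPM with EPZ011989. Wdr12, of the PeBoW complex that matures the 60S subunit, went from 104 ± 5 to 71.0 ± 5.1 CPM, and Rrs1, which brings 5S rRNA into that subunit, from 98.3 ± 5.7 to 69.4 ± 3.7 CPM. These 3 genes had log2 fold changes between -0.55 and -0.50, with no overlap between groups. In RNA polymerase I and its factors, 5 of 15 fell (33.3%) and 0 rose. The subunit gene Polr1b went from 64.2 ± 2.0 to 46.4 ± 2.7 CPM and the largest subunit gene, Polr1a, from 179 ± 13 to 131 ± 12 CPM, a call that ended with the length trend removed (adjusted p = 0.0797, edgeR). The count of 5 was 3 without DMSO replicate 2 and 3 without EPZ011989 replicate 3, and it was 3 with upper-quartile factors.

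**Figure D5:**
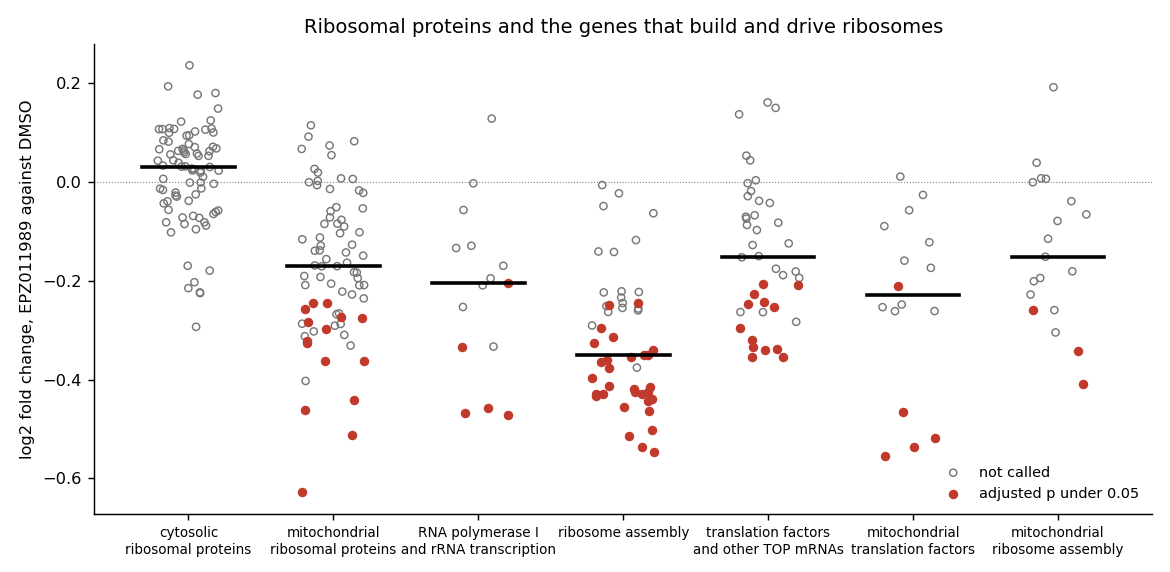
Each point is 1 tested gene, with its log2 fold change, EPZ011989 against DMSO, on the y axis and gene lists along the x axis (red, adjusted p under 0.05, bars medians). The median is 0.03 for cytosolic ribosomal proteins, -0.17 for mitochondrial ones and -0.35 for ribosome assembly, where 30 of 49 genes are called.

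Of 41 tested genes for translation factors and a few other proteins, 13 fell (31.7%) and 0 rose (median -0.15). Among genes of at least 100 CPM 16.4% were lower. The list mixes genes with and without a known TOP tract, and no tract was looked for in it. Eef1a1, the elongation factor that delivers tRNA, was at 2968 ± 132 and 2594 ± 346 CPM (adjusted p = 0.176, edgeR) and Eef2, which moves the ribosome along, at 1831 ± 105 and 1835 ± 333 CPM (adjusted p = 0.990). The release factor gene Etf1 fell from 284 ± 5 to 222 ± 8 CPM and the cap-binding factor gene Eif4e from 225 ± 11 to 189 ± 4 CPM, the latter not called with the length trend removed (adjusted p = 0.0537, edgeR). The count of 13 was 8 without DMSO replicate 2 and 7 without EPZ011989 replicate 3. Without EPZ011989 replicate 2, 17 were lower and 2 higher. The count was 7 with upper-quartile factors and 6 with library size alone.

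Of 19 genes of mTORC1 signalling and TOP mRNA control, 1 rose (5.26%, against 16.2% of all genes) and 3 fell (15.8%, near the 16.4% of genes of at least 100 CPM). Eef2k, the kinase that inactivates Eef2, rose from 13.4 ± 0.5 to 17.97 ± 1.19 CPM (adjusted p = 0.00217, edgeR). Pdcd4, an inhibitor of the helicase eIF4A, fell from 107 ± 5 to 80.5 ± 4.4 CPM, Mtor itself from 110 ± 13 to 84.8 ± 10.7 CPM and Cnbp, which binds TOP mRNAs, from 673 ± 28 to 584 ± 24 CPM. The call of Cnbp ended without DMSO replicates 2, 3 or 5 or EPZ011989 replicates 1 or 3, with upper-quartile factors or library size alone, and with the length trend removed. That of Mtor ended without EPZ011989 replicate 3 and with library size alone. Larp1 was at 111 ± 6 and 99.9 ± 6.9 CPM (adjusted p = 0.157). The count of 3 lower was 8 without EPZ011989 replicate 2 and 1 without replicate 3. In the Myc network 3 of 10 rose (30.0%, against 16.2% of all genes) and 3 fell (30.0%, against 7.96%). Those that rose were Myc, a driver of ribosome gene transcription, from 1.21 ± 0.15 to 3.23 ± 0.99 CPM, Mycn from 5.13 ± 0.73 to 8.91 ± 0.93 CPM and Mxd3 from 39.8 ± 4.4 to 51.8 ± 7.8 CPM. The call of Mxd3 held in 2 of the 9 fits that each left out 1 library, those without DMSO replicate 5 and without EPZ011989 replicate 2. Max, the partner of Myc, fell from 119 ± 5 to 94.5 ± 10.7 CPM, and Mlx and Mnt fell as well, Mlx not without DMSO replicate 4 or EPZ011989 replicate 3 or with upper-quartile factors. Of 9 tested genes of the p53 response to ribosome stress, 1 rose (11.1%) and 2 fell (22.2%), against 16.2% and 7.96% of all genes. Cdkn1a rose from 55.4 ± 3.2 to 91.1 ± 13.0 CPM, and Ccng1 and Zmat3 fell, from 56.2 ± 3.3 to 39.1 ± 6.7 CPM and from 71.7 ± 5.2 to 53.2 ± 3.0 CPM.

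Some factors that serve the mitochondrial ribosome fell too. Of 16 tested translation factors and rRNA methyltransferases, 5 fell (31.2%) and 0 rose (median -0.23), against 10.9% lower among genes at 10 to 150 CPM. Gfm1, the mitochondrial elongation factor G, stood at 271, 250, 240, 253 and 240 CPM in DMSO and at 183, 164, 173 and 171 CPM with EPZ011989, with a wide gap between the groups (log2 fold change -0.54 ± 0.06 SE, adjusted p = 1.18e-04, edgeR). Lrpprc, which stabilises mitochondrial mRNAs, fell from 329 ± 15 to 224 ± 14 CPM and Taco1, an activator of Cox1 translation, from 25.2 ± 2.1 to 17.6 ± 1.2 CPM. Tufm, the mitochondrial elongation factor Tu, was at 142 ± 10 and 119 ± 26 CPM and did not pass (adjusted p = 0.222). The count of 5 was 3 without DMSO replicate 2 or replicate 3 and without EPZ011989 replicate 3. Of 19 mitochondrial ribosome assembly genes 3 fell (15.8%, against the same 10.9%) and 0 rose: Dhx30, an RNA helicase (159 ± 6 to 133 ± 7 CPM), Trmt2b, an rRNA and tRNA methyltransferase (33.7 ± 2.8 to 25.4 ± 3.3 CPM), and Rbfa, a 28S maturation factor (47.8 ± 2.4 to 37.7 ± 5.8 CPM, groups overlapping). Trmt2b was not called with the length trend removed (adjusted p = 0.0729, edgeR), and Rbfa not without DMSO replicates 2, 4 or 5 or EPZ011989 replicates 1 or 3. The count of 3 was 5 without EPZ011989 replicate 2 or replicate 4, and 2 without DMSO replicates 2, 4 or 5, without EPZ011989 replicates 1 or 3 and with upper-quartile factors. These lists hold no member by the name rule, and no difference between lists was tested.

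Outside the members, the genes whose log2 CPM followed a class mean most closely over the 9 libraries were taken as the 10 highest by Pearson r. For the cytosolic class r was 0.98 to 0.99, led by Atp5h (0.99), and the set held Fau, Dad1, Cox6b1 and Ndufs8. For the mitochondrial class r was 0.99 throughout, led by Fkbp4, and the set held Fbl, Eif6, Nhp2, Eif3g and Polr1d, 5 genes of the lists above. None of these 20 genes passed the test.

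Markers of other cell types moved with the treatment and are given beside these results. Alpha cell identity was as labelled, with Gcg at 19280 ± 804 and 18630 ± 2338 CPM (adjusted p = 0.778, edgeR). None of the 10 fibroblast markers was at 0 in all libraries, 7 were tested, 6 rose and 0 fell, and their summed level was 8.0 to 10.9 CPM in DMSO and 44.3 to 53.6 CPM with EPZ011989. The 8 beta cell markers summed to 38.3 to 43.5 CPM and 44.3 to 56.8 CPM, with Ins1, Pdx1 and Ucn3 at 0 in every library, and 3 of 4 tested rose. Duct markers summed to 16.6 to 20.6 CPM and 26.3 to 29.7 CPM (1 of 3 tested rose and 1 fell). Acinar markers summed to 9.0 to 13.4 CPM and 5.78 to 7.87 CPM, and the 1 tested fell. Leukocyte markers summed to 4.58 to 7.07 CPM and 6.93 to 9.77 CPM (1 of 3 rose). Endothelial markers summed to 0.118 to 0.309 CPM and 0.702 to 1.47 CPM (1 of 2 rose), and delta cell markers to at most 0.135 CPM and 1.16 CPM, where the 1 tested, Sst, rose from 0. The part of such markers in the results was not tested, and in bulk RNA fewer cells of a type and less RNA per cell cannot be told apart.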

How the data were processed

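Poly-A RNA of 9 libraries was measured, 5 with DMSO and 4 with EPZ011989. Build mm10 and the tools HISAT2, StringTie and DESeq2 are listed in the submitters' processing notes with no role. How strand was handled in counting is not given in the sources used here. A table deposited by the authors holds whole-number gene counts, which were tested as deposited. Their normalized table was not used. Depth was 60274140 to 74651782 counts per library, and many fragments appear to add about 4 counts, so counts are not independent reads.

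After filterByExpr and TMM scaling, counts were fitted with the quasi-likelihood method of edgeR 4.0.16 (robust, treatment as the only term, 9 libraries) in R 4.3.3. Two-sided p-values were adjusted by Benjamini-Hochberg over 14754 genes, with calls under 0.05. CPM values are TMM-scaled, and the standard error (SE) of a log2 fold change is its size divided by the square root of F. The fit was tested on simulated data. Lengths, positions and overlaps come from GENCODE M21 (GRCm38), using the shortest coding transcript with a consensus coding sequence, so levels per length are approximate. Promoter windows come from RefSeq GRCm38.p6.

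The members and all gene lists were chosen with earlier results of these data known. Named were the called members, paralogs and their partners, stalk and other preset members, the extremes per length, up to 3 called genes of each list in each direction, preset partner genes, and the 10 non-members most like each class. Genes named beyond this, such as the rows named Rpl24, Rps3a2, Rps3a3, Rpl31, Mrps36 and Mrpl23 and the lower members after the trend was removed, were chosen after their values were seen. The division into bacterial counterparts and mitochondria-specific proteins was written after the data were seen. Alternatives were upper-quartile and RLE scaling, no scaling beyond library size, 2 other filters, DESeq2 1.42.0, limma-voom (limma 3.58.1), a replicate block, removal of the length trend (lowess span 0.3), counts divided by 4, leaving out each library, and leaving out EPZ011989 replicates 2 and 4.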

Additional observations from a re-analysis of the deposited data

How the results depend on the processing

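The counts of higher members were 0 in both classes under every alternative tried. The count of lower cytosolic members, 0, became 6 with the length trend removed and ranged from 0 to 1 when each library was left out. The 1 was the row named Rpl24 without EPZ011989 replicate 2 and Rpl36al without replicate 4, and the cause was not tested. The count of lower mitochondrial members, 15, became 8 with upper-quartile factors and 29 with the length trend removed, and ranged from 9 (without EPZ011989 replicate 1) to 26 (without replicate 4). It was 12 to 19 under the other alternatives except the replicate block. The number of all tested genes called lower, 1174 in the main fit, moved as well when a library was left out. It ranged from 781 (without EPZ011989 replicate 3) to 2377 (without EPZ011989 replicate 2). With upper-quartile factors it was 776 and with library size alone 865, so list counts under these settings stand beside fewer calls in general. The median log2 fold change ran from -0.28 to -0.09 for mitochondrial members when a library was left out, and from -0.11 to 0.14 for cytosolic ones, so the latter took either sign. With the replicate number as a block, 471 of 14754 tested genes were lower. Of the members, 3 of 76 mitochondrial (Mrpl1, Mrpl20 and Mrps10) and 0 of 83 cytosolic ones were lower. Of the lists, 19 of 49 ribosome assembly genes, 3 of 41 translation factors, 3 of 15 polymerase I genes and 3 of 16 mitochondrial translation factors were lower. So were 1 of 19 mTORC1 genes, 1 of 19 mitochondrial assembly genes and 0 of 10 Myc network genes. The labels do not say whether equal numbers mark a shared day or culture. Deviations of same-numbered libraries from their group means correlated at -0.09 to 0.03, and not every library correlated best with its own number. So few pairs, which also differ along the length trend, cannot decide whether the libraries were paired. No named member reversed a called direction under any alternative run. The 4 to 5 libraries per group limit the precision, and genes with a few counts, such as Rpl3l, were not tested.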
